A study of Mus musculus with 9 samples.

Results

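Acid and chloride transport at the ruffled border was examined through 7 genes: Car2, Car6, Slc4a2, Clcn7, Ostm1, Snx10 and Plekhm1. The genes were taken by name out of 56691 genes in the deposited table. Earlier results of these data were known when the 7 were chosen, so counts of calls among them are a description only. All 7 were among the 11995 genes tested, namely those whose FPKM reached 1 in 3 or more libraries. FPKM is the number of fragments per kilobase of exon, scaled here to the library's total of counts over all genes, so it allows for differences in gene length. The length is the exonic length annotated for the gene, so orders and ratios between genes depend on that annotation. Car6 reached that minimum in 5 libraries, namely all RANKL libraries and 2 control libraries, and the others in each of the 9 libraries.

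An osteoclast resorbs bone in a sealed space under the cell. Carbonic anhydrase inside the cell turns carbon dioxide and water into protons and bicarbonate, the vacuolar proton pump moves the protons across the ruffled border, and chloride follows through an exchanger in the same membrane, while bicarbonate leaves on the opposite side of the cell in exchange for chloride. The ruffled border is built by fusion of lysosome-related vesicles with the plasma membrane, so lysosomal trafficking proteins belong to the same machinery. Loss of CA2, CLCN7, OSTM1, SNX10 or PLEKHM1 is known in human osteopetrosis, a disease of osteoclasts that fail to resorb bone or fail to form.

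RNA sequencing was carried out on RAW264.7 cells, a mouse macrophage line that forms osteoclast-like cells when given RANKL, the cytokine that drives osteoclast formation. The 9 libraries fell into 3 groups of 3: untreated control cells, cells given RANKL, and cells given RANKL together with UD (uridine, a pyrimidine nucleoside), all harvested at day 3. All groups were the same immortalized line, a limit of the model, since no primary osteoclast was measured in these libraries. The study also used primary bone marrow-derived macrophages in other assays. Total counts per library ran from 15951800 to 19746862 with a median of 19182637. Libraries of 1 group differed by more than counting error (chi-square divided by its degrees of freedom, 2.83 to 8.22), so each was kept as a separate replicate.

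The macrophage label was checked against marker genes. Of 7 macrophage markers, 6 had a mean FPKM of at least 1 in every group, and only Mertk was near 0. Their summed FPKM ran from 8905 to 9505 in control, 2460 to 2698 in RANKL and 2136 to 2272 in RANKL + UD libraries. Most of that sum was Lyz2, at a mean FPKM of 8000 in control and 1431 in RANKL cells. Csf1r (352.7 and 185.2), Adgre1 (59.4 and 10.1) and Itgam (72.5 and 22.8) were also called lower with RANKL. By contrast, Cd68 (549.1 and 782.0) and Spi1 (82.6 and 120.9) were called higher with RANKL. Of 7 osteoclast markers, 3 had a mean FPKM of at least 1 in control and 6 in each of the other groups, Calcr being the exception there, and their summed FPKM ran from 38.1 to 41.0, 2299 to 2500 and 1438 to 1466. The summed osteoclast markers were thus highest with RANKL and lower, but above control, with RANKL + UD. Their part in the results was not tested. Markers of fibroblasts, T cells, B cells and epithelial cells had no member at a mean FPKM of 1 in any group, and their sums stayed at or under 0.8. In these bulk libraries, fewer osteoclast-like cells and less RNA per cell cannot be told apart.

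RANKL was followed by higher levels of all 7 genes, and UD given with RANKL by lower levels of 5 of them and a higher level of Car2. In RANKL against control, all 7 genes were called higher by edgeR's quasi-likelihood test at a Benjamini-Hochberg adjusted p under 0.05. In that comparison 57.6% of the 11995 tested genes were called, 27.3% as higher and 30.2% as lower. In RANKL + UD against RANKL, Car6, Clcn7, Slc4a2, Snx10 and Plekhm1 were called lower, Car2 higher, and Ostm1 was not called. Of these, Car6 passed the filter only through RANKL and control libraries, so its lower call is not independent of that filter. Plekhm1 kept its call in 12 of 18 alternative settings. Here 38.8% of all tested genes were called, 18.6% as higher and 20.2% as lower. With library totals in place of TMM, edgeR's trimmed mean scaling, 36.9% and not 47.5% of all calls were higher in the first comparison, and 66.2% and not 48.0% in the second. The median log2 fold change of the 7 genes was 0.94 in the first comparison and -0.45 in the second, beside -0.03 and 0.005 for all tested genes. Both comparisons use the same 3 RANKL libraries, so their values are given side by side.

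**Figure D1:**
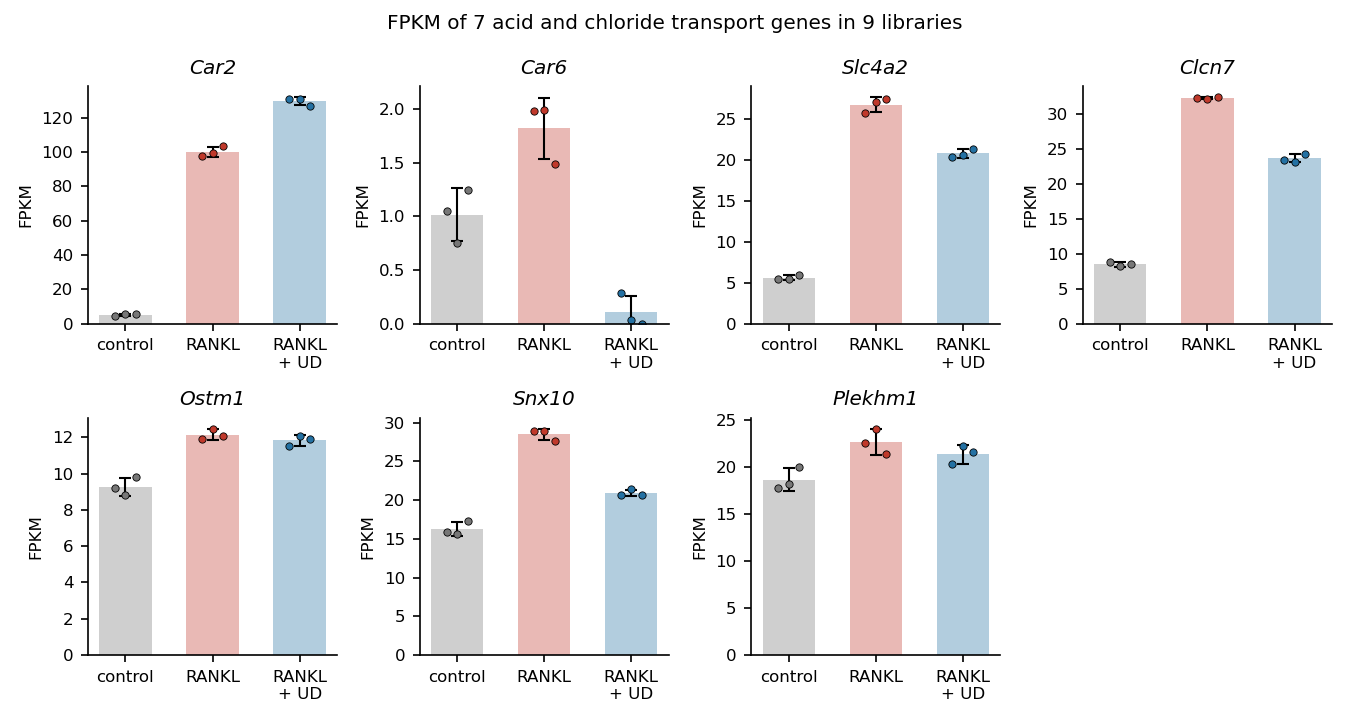
FPKM of the 7 genes in control, RANKL and RANKL + UD libraries, with points for the 3 libraries of each group, bars for the group mean and error bars for the SD. Car2 stands at a mean of 5.06, 100.1 and 129.7 and Car6 at 1.01, 1.82 and 0.103, while the remaining 5 genes have their highest mean in the RANKL group.

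The proton source comes first. Car2 encodes the cytosolic carbonic anhydrase II, the enzyme that supplies protons for resorption. It lies on the plus strand of chromosome 3 from 14951333 to 14965830 in the coordinates of the deposited table (ENSMUSG00000027562, 2422 exonic bases). Its FPKM was 4.22, 5.52 and 5.44 in the control libraries, 97.49, 99.36 and 103.40 in the RANKL libraries, and 130.93, 130.99 and 127.10 in the RANKL + UD libraries. Every RANKL library lay far above every control library, and every UD library lay above the highest RANKL library. The group means were 5.06 ± 0.729, 100.1 ± 3.02 and 129.7 ± 2.23 (SD, n = 3 each). Car2 rose with RANKL by 4.39 on the log2 scale (SE 0.0725, edgeR adjusted p = 3.59e-21), which placed it 94th from the highest of the 11995 genes, and its rank by FPKM went from 7346 in control to 395 in RANKL cells. With UD it rose further by 0.29 on the log2 scale (SE 0.0550, edgeR adjusted p = 0.000278). That change was 2164th from the highest of the 11995 genes, and the rank of Car2 by FPKM was 301. It was the one gene of the 7 that was higher in RANKL + UD than in RANKL cells.

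Car6 encodes carbonic anhydrase VI, the secreted isozyme known from saliva. It lies on the minus strand of chromosome 4 from 150271472 to 150285789 (ENSMUSG00000028972, 1816 exonic bases). It was expressed at a low level, with read counts of 32, 27 and 36 in the control libraries, 71, 70 and 52 in the RANKL libraries and 10, 1 and 0 in the RANKL + UD libraries. The corresponding FPKM values were 1.05, 0.75 and 1.24, then 1.98, 1.99 and 1.49, then 0.28, 0.03 and 0.00. The 3 groups did not overlap, with RANKL highest and RANKL + UD lowest. Car6 rose with RANKL by 0.94 on the log2 scale (SE 0.360, edgeR adjusted p = 0.0297), a call that was lost when control replicate 1 or 2 or RANKL replicate 1 or 2 was left out, with edgeR adjusted p from 0.0534 to 0.130.

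With UD, Car6 fell by 4.06 on the log2 scale (SE 0.513, edgeR adjusted p = 2.35e-06), the 9th lowest value of all tested genes. Car6 passed the filter only through RANKL and control libraries, so its rank and its UD calls are not independent of that filter. The summed counts were 11 in RANKL + UD and 193 in RANKL libraries, a depth-corrected ratio of 0.0623 with an exact 95% interval from 0.0306 to 0.114 that covers counting error only. RANKL + UD replicate 1 held 10 of the 11 counts. Without it the ratio was 0.00898 with an interval from 0.000226 to 0.0506, and the fitted log2 change was -6.58. The count of 0 in RANKL + UD replicate 3 allows up to 3 counts at this depth. Car6 in RANKL + UD cells was also below the control cells, with a summed count ratio of 0.114 and an exact 95% interval from 0.0552 to 0.214. Car2 and Car6 thus moved in opposite directions with UD, and each direction was the same under all alternatives run.

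A 150-base stretch of the Car6 promoter is shown because it holds an E-box. It was taken from the RefSeq annotation of build GRCm38.p6 (chr4:150201236-150201385, minus strand, positions -250 to -101 from the annotated start), which is not the coordinate set of the deposited table. The capitals mark the E-box CACGTG, whose first base lies at position -149.
Car6: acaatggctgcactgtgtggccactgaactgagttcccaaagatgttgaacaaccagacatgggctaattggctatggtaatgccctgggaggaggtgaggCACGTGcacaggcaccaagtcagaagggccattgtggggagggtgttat

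The bicarbonate exit follows. Slc4a2 encodes AE2, the anion exchanger that passes bicarbonate out of the cell for chloride. It lies on the plus strand of chromosome 5 from 24628835 to 24645948 (ENSMUSG00000028962, 8322 exonic bases). Its FPKM was 5.46, 5.45 and 5.92 in control, 25.73, 27.16 and 27.43 in RANKL, and 20.42, 20.63 and 21.38 in RANKL + UD libraries. The 3 groups were separate, with RANKL + UD between the other 2. Slc4a2 rose with RANKL by 2.34 on the log2 scale (SE 0.0541, edgeR adjusted p = 6.54e-19) and was lower with UD by a log2 change of -0.45 (SE 0.0492, edgeR adjusted p = 3.29e-07). The gene overlaps Fastk on the opposite strand (24643438 to 24650285), whose mean FPKM was 6.63 ± 0.900, 7.15 ± 1.05 and 8.48 ± 0.439 (SD, n = 3) in the 3 groups. Whether the counting used strand is not given in the sources used here, so reads in the overlap cannot be assigned with certainty.

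Of the 2 Slc4a2 windows in RefSeq, 1 is shown because it holds GGAAA, the core recognized by NFAT factors, 3 times, and the other held none of the sequences searched. The stretch comes from RefSeq, GRCm38.p6 (chr5:24424982-24425231, plus strand, the 250 bases before that start). The capitals mark the core, here on the opposite strand as TTTCC, with first bases at positions -235, -187 and -26.
Slc4a2: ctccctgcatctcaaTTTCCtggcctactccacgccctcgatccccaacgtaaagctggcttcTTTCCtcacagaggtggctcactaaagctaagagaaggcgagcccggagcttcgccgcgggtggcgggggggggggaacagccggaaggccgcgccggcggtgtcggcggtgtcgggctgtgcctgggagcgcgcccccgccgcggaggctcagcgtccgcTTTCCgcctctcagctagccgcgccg

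The chloride exchanger and its partner come next. Clcn7 encodes ClC-7, the chloride and proton exchanger of lysosomes and the ruffled border. It lies on the plus strand of chromosome 17 from 25352365 to 25381078 (ENSMUSG00000036636, 5291 exonic bases). Its FPKM was 8.81, 8.16 and 8.46 in control, 32.20, 32.12 and 32.34 in RANKL, and 23.42, 23.15 and 24.26 in RANKL + UD libraries. The RANKL libraries were nearly identical to each other and no groups overlapped. Clcn7 rose with RANKL by 2.01 on the log2 scale (SE 0.0532, edgeR adjusted p = 5.84e-18) and was lower with UD by a log2 change of -0.53 (SE 0.0492, edgeR adjusted p = 3.10e-08).

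Of the 2 Clcn7 windows in RefSeq, 1 is shown because it holds 2 E-boxes beside its start, and the other held none of the sequences searched. The stretch comes from RefSeq, GRCm38.p6 (chr17:25133271-25133410, plus strand, from 120 bases before that start to base 20 after it). The capitals mark CACGTG, with first bases at positions -15 and 8.
Clcn7: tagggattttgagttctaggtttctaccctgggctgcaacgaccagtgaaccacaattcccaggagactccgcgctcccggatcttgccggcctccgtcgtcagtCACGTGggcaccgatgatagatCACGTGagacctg

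Ostm1 encodes the membrane protein that binds ClC-7 and is needed for its stability. It lies on the plus strand of chromosome 10 from 42459818 to 42578455 (ENSMUSG00000038280, 7211 exonic bases). Its FPKM was 9.20, 8.84 and 9.82 in control, 11.91, 12.47 and 12.07 in RANKL, and 11.52, 12.09 and 11.91 in RANKL + UD libraries. The RANKL libraries all lay above the control libraries, while the RANKL and RANKL + UD libraries overlapped by FPKM. On CPM, read counts scaled to library size and by TMM, the UD libraries, at 81.9, 85.0 and 84.2, all lay below the RANKL libraries, at 89.6, 93.4 and 90.6. Ostm1 rose with RANKL by 0.48 on the log2 scale (SE 0.0563, edgeR adjusted p = 2.99e-07), a smaller change than that of Clcn7. The log2 change with UD was -0.12 (SE 0.0555, edgeR adjusted p = 0.0853), which did not pass the threshold.

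Genes of vesicle traffic complete the set. Snx10, a sorting nexin that binds phosphoinositides on endosomes, lies on the plus strand of chromosome 6 from 51500881 to 51567659 (ENSMUSG00000038301, 9300 exonic bases). Its FPKM was 15.81, 15.57 and 17.24 in control, 28.87, 28.91 and 27.66 in RANKL, and 20.62, 21.37 and 20.67 in RANKL + UD libraries. The 3 groups were separate, and the RANKL + UD libraries lay closer to control than to RANKL. Snx10 rose with RANKL by 0.90 on the log2 scale (SE 0.0496, edgeR adjusted p = 1.38e-12) and was lower with UD by a log2 change of -0.53 (SE 0.0490, edgeR adjusted p = 2.97e-08).

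Of the 3 Snx10 windows, 1 is shown because it alone holds an AP-1 sequence, the motif bound by Fos and Jun factors. The stretch comes from RefSeq, GRCm38.p6 (chr6:51523934-51524083, plus strand, the 150 bases before one of the annotated starts). The capitals mark the match to TGANTCA, with its first base at position -98.
Snx10: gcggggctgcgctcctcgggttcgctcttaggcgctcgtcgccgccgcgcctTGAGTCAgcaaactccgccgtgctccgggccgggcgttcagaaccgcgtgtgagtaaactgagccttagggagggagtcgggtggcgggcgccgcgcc

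Plekhm1, an adaptor that binds Rab7 on late endosomes and lysosomes, lies on the minus strand of chromosome 11 from 103255101 to 103303513 (ENSMUSG00000034247, 5968 exonic bases). Its end overlaps Arhgap27os1 on the opposite strand, which was at or under an FPKM of 0.55 in every library. Its FPKM was 17.79, 18.17 and 20.07 in control, 22.55, 24.10 and 21.43 in RANKL, and 20.32, 22.28 and 21.59 in RANKL + UD libraries. RANKL and control did not overlap, whereas RANKL + UD and RANKL overlapped by FPKM but not by TMM-scaled CPM. Plekhm1 rose with RANKL by 0.37 on the log2 scale (SE 0.0584, edgeR adjusted p = 1.46e-05), the smallest change of the 7. With UD the log2 change was -0.17 (SE 0.0580, edgeR adjusted p = 0.0232). That call was lost without RANKL replicate 2, UD replicate 1 or UD replicate 3 (edgeR adjusted p = 0.139, 0.119 and 0.0540) and with total counts in place of TMM (-0.085, edgeR adjusted p = 0.263).

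**Figure D2:**
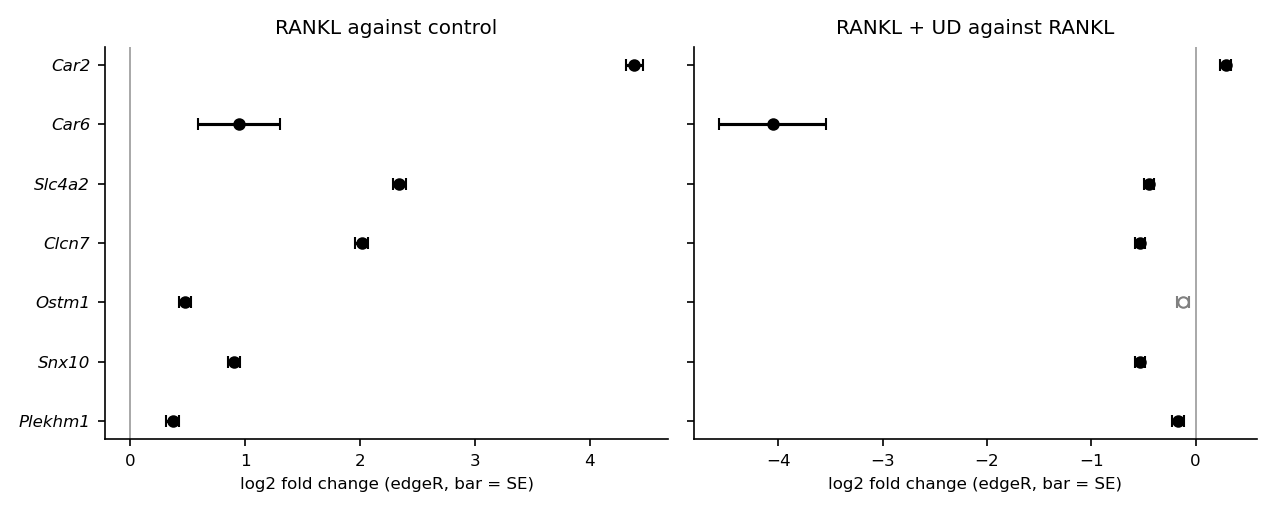
Fitted log2 fold changes of the 7 genes with bars for the standard error, filled where the edgeR adjusted p was under 0.05. The left panel (RANKL against control) spans 0.37 for Plekhm1 to 4.39 for Car2, and the right panel (RANKL + UD against RANKL) spans -4.06 for Car6 to 0.29 for Car2, with Ostm1 open at -0.12.

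The promoter windows were searched as a set. RefSeq windows of 300 bases, 250 before and 50 after the start, were found for 6 of the 7 genes, in 10 windows, and Car2 was not matched. Both strands were searched for CACGTG, an exact form of the CLEAR element of lysosomal genes (which contains the E-box), TGANTCA and GGAAA. Among 32851 promoter windows, these were present in 7.15%, 0.326%, 7.81% and 61.3%. The E-box was found in Car6 and Clcn7, the AP-1 sequence in Snx10, and GGAAA in Slc4a2, Snx10 and Clcn7. The percentages count windows, whereas a gene is named here if any of its windows held a match. Slc4a2, Snx10 and Clcn7 had several windows, so the units are unlike. No window of the 6 genes held that exact form of the CLEAR element, and variants of the element were not searched. The exact form was present in only 0.326% of all windows, so its absence does not show that these windows lack a CLEAR element. The windows of Ostm1 and Plekhm1 held none of the 4 sequences. A match is a description of these letters and not of binding.

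RANKL + UD and control libraries were also set side by side. Here 6 genes were higher in RANKL + UD than in control cells, with log2 fold changes of 4.68 for Car2, 1.89 for Slc4a2, 1.48 for Clcn7, 0.37 for Snx10, 0.35 for Ostm1 and 0.20 for Plekhm1. Car6 was lower, at -3.11 (edgeR adjusted p = 7.39e-05), and the fit without UD replicate 1 gave -5.63. All 7 passed the threshold, in a comparison where 54.0% of all tested genes were called, 26.7% as higher and 27.3% as lower. The Car6 call is again not independent of the filter.

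Non-overlap was counted on TMM-scaled CPM. All 7 genes had no overlap between RANKL and control libraries, against 61.0% of all tested genes in either direction with 28.9% higher and 32.1% lower. All 7 likewise had no overlap between RANKL + UD and RANKL libraries, against 49.4% of all tested genes (24.4% higher and 24.9% lower). Between RANKL + UD and control libraries, 6 lay higher and Car6 lower without overlap, against 60.1% of all tested genes, 29.7% higher and 30.4% lower. By FPKM, Ostm1 and Plekhm1 overlapped in the second comparison. Car6 passed the filter only through RANKL and control libraries, so its lower position with UD is not independent of that filter.

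The order of the 7 genes by FPKM differed between groups. In control cells the order was Plekhm1 (18.7 ± 1.22), Snx10 (16.2 ± 0.903), Ostm1 (9.29 ± 0.496), Clcn7 (8.48 ± 0.325), Slc4a2 (5.61 ± 0.269), Car2 (5.06 ± 0.729) and Car6 (1.01 ± 0.247). Slc4a2 and Car2 overlapped, and the other neighbours did not. In RANKL cells Car2 stood first, followed by Clcn7 (32.2 ± 0.111), Snx10 (28.5 ± 0.710), Slc4a2 (26.8 ± 0.914), Plekhm1 (22.7 ± 1.34), Ostm1 (12.2 ± 0.288) and Car6 (1.82 ± 0.286), with no overlap between neighbours. In RANKL + UD cells Car2 and Clcn7 (23.6 ± 0.579) again led. Plekhm1 (21.4 ± 0.994), Snx10 (20.9 ± 0.419) and Slc4a2 (20.8 ± 0.505) overlapped there, and Ostm1 (11.8 ± 0.291) and Car6 (0.103 ± 0.154) stood lowest (all SD, n = 3).

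Ratios of FPKM within a library compared genes that work together. Clcn7 to Ostm1, the exchanger to its partner, was 0.958, 0.923 and 0.862 in control, 2.70, 2.58 and 2.68 in RANKL, and 2.03, 1.91 and 2.04 in RANKL + UD libraries. Car2 to Slc4a2, the proton source to the bicarbonate exit, was 0.773, 1.01 and 0.919, then 3.79, 3.66 and 3.77, then 6.41, 6.35 and 5.94. The first ratio was thus highest with RANKL alone and the second highest with RANKL + UD, without overlap between groups. The log2 differences were 1.54 for Clcn7 to Ostm1 and 2.06 for Car2 to Slc4a2 with RANKL, and -0.41 and 0.74 with UD.

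Clcn7 was also set against Tcirg1, which encodes the a3 subunit of the vacuolar proton pump. Tcirg1 had a mean FPKM of 36.5 ± 2.56 in control, 105.0 ± 6.76 in RANKL and 89.1 ± 1.77 in RANKL + UD cells (SD, n = 3). The ratio of Clcn7 to Tcirg1 was 0.233 ± 0.0216, 0.308 ± 0.0203 and 0.265 ± 0.00585, and that of Snx10 to Plekhm1 was 0.868 ± 0.0178, 1.26 ± 0.0499 and 0.977 ± 0.0326. Both ratios were highest in the RANKL group. Each of the 4 ratios separated both pairs of groups, and the 2-sided exact permutation test over libraries gave p = 0.1 each time, the smallest value that 3 against 3 libraries allow.

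**Figure D3:**
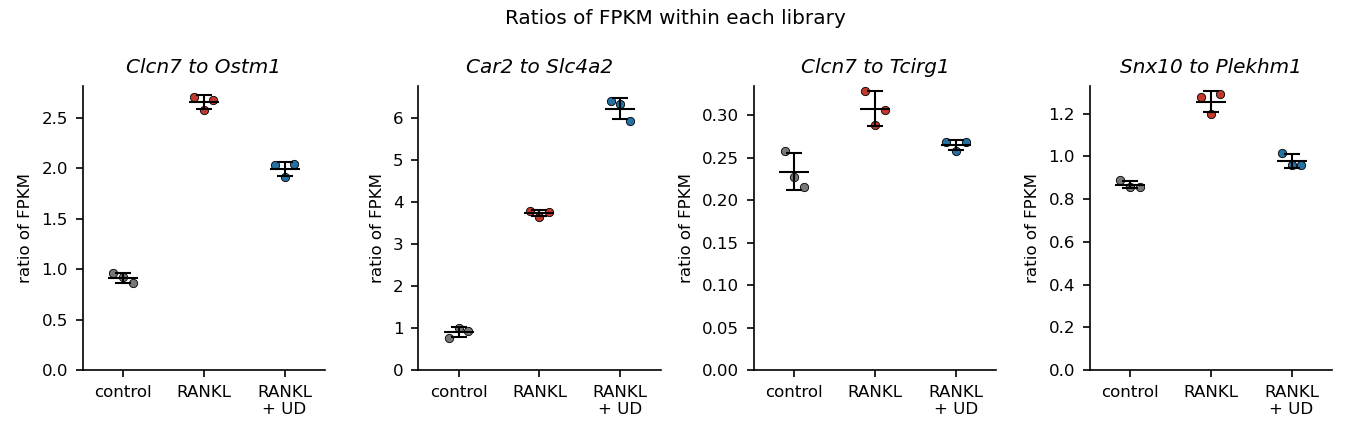
Ratios of FPKM within each library, with points for the 3 libraries of each group, horizontal lines for the mean and bars for the SD. Clcn7 to Ostm1 stands at means of 0.914, 2.65 and 1.99 and Car2 to Slc4a2 at 0.902, 3.74 and 6.24 in control, RANKL and RANKL + UD cells.

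The share that each gene took of its own family's summed FPKM was then examined. Car2 made up 18.0% ± 1.72 of the summed FPKM of 16 carbonic anhydrases in control, 86.2% ± 0.640 in RANKL and 87.1% ± 0.526 in RANKL + UD cells (SD, n = 3). Its shares in the RANKL and RANKL + UD libraries overlapped. In control cells the highest other member was Car5b, a mitochondrial isozyme, at an FPKM of 9.08 ± 0.347, and in the other groups it was Car13, a cytosolic isozyme, at 6.82 ± 0.368 and 11.0 ± 0.938. Car6 made up 3.64% ± 0.947, 1.57% ± 0.278 and 0.0692% ± 0.103, so its share was lower in RANKL than in control cells although its level was higher.

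Clcn7 made up 22.3% ± 1.43 of the 7 Clcn genes in control, 53.5% ± 1.44 in RANKL and 45.3% ± 0.984 in RANKL + UD cells, while Clcn3, an endosomal exchanger of the same family, stayed at a mean FPKM of 12.4, 12.7 and 12.7. Slc4a2 made up 28.9% ± 1.35, 71.0% ± 2.03 and 61.6% ± 0.515 of the 10 Slc4a genes, beside Slc4a7, a sodium bicarbonate cotransporter, at 13.7, 10.6 and 12.7 FPKM. By FPKM, Clcn7 and Slc4a2 were thus the largest contributors to their families in both the RANKL and the RANKL + UD group. Snx10 took 2.61% ± 0.0831, 5.09% ± 0.178 and 3.77% ± 0.0628 of the 30 sorting nexins, and Plekhm1 took 41.6% ± 0.955, 52.8% ± 1.30 and 50.5% ± 0.476 of the 3 Plekhm genes. Shares from raw counts without division by length, an alternative chosen after seeing the data, were 10.4%, 79.9% and 81.9% for Car2, 11.1%, 32.9% and 26.2% for Clcn7, 18.2%, 57.6% and 46.9% for Slc4a2, and 6.16%, 11.6% and 8.85% for Snx10. The order of the groups was the same by either measure.

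**Figure D4:**
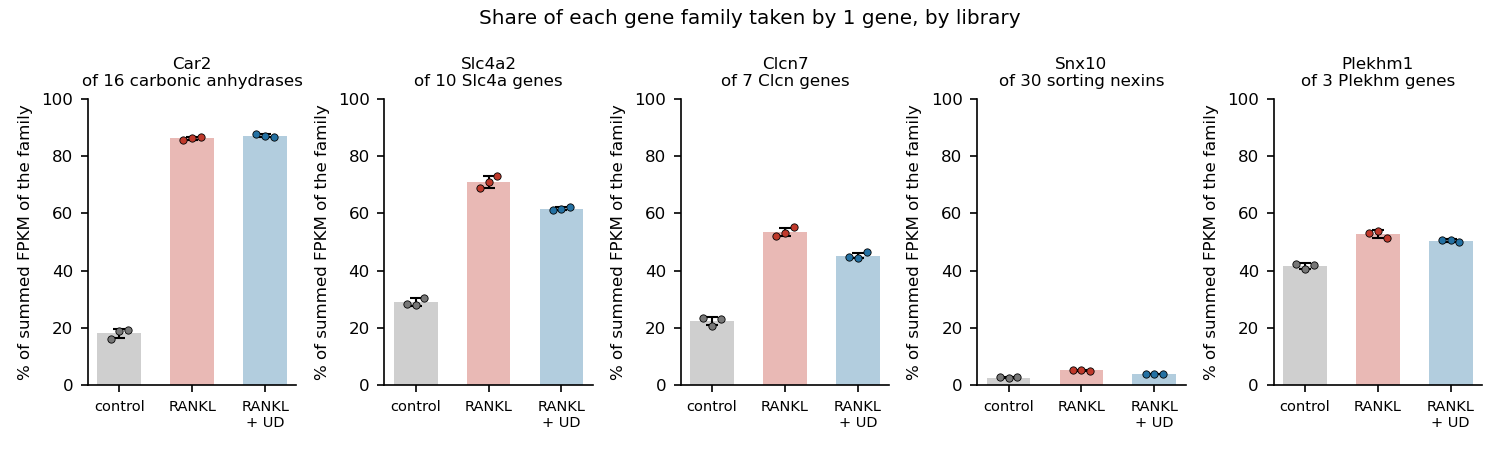
Share of a gene family's summed FPKM taken by Car2, Slc4a2, Clcn7, Snx10 and Plekhm1, in percent, with points for libraries, bars for means and error bars for the SD of 3 libraries. Car2 goes from 18.0% in control to 86.2% in RANKL cells and Slc4a2 from 28.9% to 71.0%, while Snx10 stays at or under 5.23% of the sorting nexins in every library.

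The relatives of the 7 genes were counted list by list. Among all tested genes, 27.3% were called higher and 30.2% lower with RANKL, and 18.6% and 20.2% with UD. Of 14 other carbonic anhydrases, 4 were tested, and 2 were lower with RANKL, Car5b (log2 -1.12) and the membrane isozyme Car12 (-0.76), while none was higher. With UD, Car13 rose by 0.60 on the log2 scale and the other 3 were not called. The median log2 fold changes of this list were -0.40 and -0.05.

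Of 24 chloride channel and exchanger genes, 15 were tested. With RANKL, 3 were higher, 6 lower and 6 not called. Ttyh2 (1.11) and Ttyh3 (0.84), of the tweety family, were higher, and Lrrc8c (-2.26) and Lrrc8b (-0.55), subunits of the volume-regulated anion channel, were lower. With UD, 4 were lower, among them Ttyh2 (-0.51) and Clic4 (-0.47), an intracellular chloride channel protein, and 11 were not called. The median log2 fold changes were 0.02 and -0.13.

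Among 18 bicarbonate and proton carriers, 8 were tested. None was higher and 3 were lower with RANKL, including the sodium and proton exchangers Slc9a9 (-2.66) and Slc9a5 (-0.93). With UD, Slc4a7 alone was called, at 0.18, and it was not called without RANKL replicate 3. The list's medians were -0.22 and 0.11 on the log2 scale.

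Of 33 genes of ruffled border and lysosome trafficking, 28 were tested, with 14 higher, 10 lower and 4 not called in RANKL against control. Arl8b (0.97), the small GTPase that moves lysosomes outward, and Rab7 (0.55), the late endosomal GTPase that Plekhm1 binds, rose, whereas Rab27a (-1.52) and Rab3d (-0.86), GTPases of secretory granules, fell. With UD, 4 were higher, 11 lower and 13 not called, so in the main fit calls leaned the same way as in the 7 genes in both comparisons. More lower than higher calls with UD were also seen among the chloride channels and exchangers and the sorting nexins. Rab27a (1.36) and Def8 (0.45), a binding partner of Plekhm1, were higher, and Stx4a (-0.49) and Plekhm2 (-0.41) were lower. Without UD replicate 2 the 11 became 7, and with total counts in place of TMM 7 were higher and 3 lower. With limma, an alternative test, on log2(FPKM + 1), 3 were lower. The medians were 0.10 and -0.06.

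Of 29 other sorting nexins, 27 were tested, and 6 were higher, 11 lower and 10 not called with RANKL, from Snx7 (0.94) and Snx8 (0.61) to Snx33 (-0.72) and Snx24 (-1.26). With UD, Snx30 (0.20) and Snx27 (0.20) were higher, 6 were lower, including Snx29 (-0.56) and Snx33 (-0.48), and 19 were not called. Of the 2 higher calls, 1 was lost without RANKL replicate 3 or UD replicate 3. The medians were -0.07 and -0.09.

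**Figure D5:**
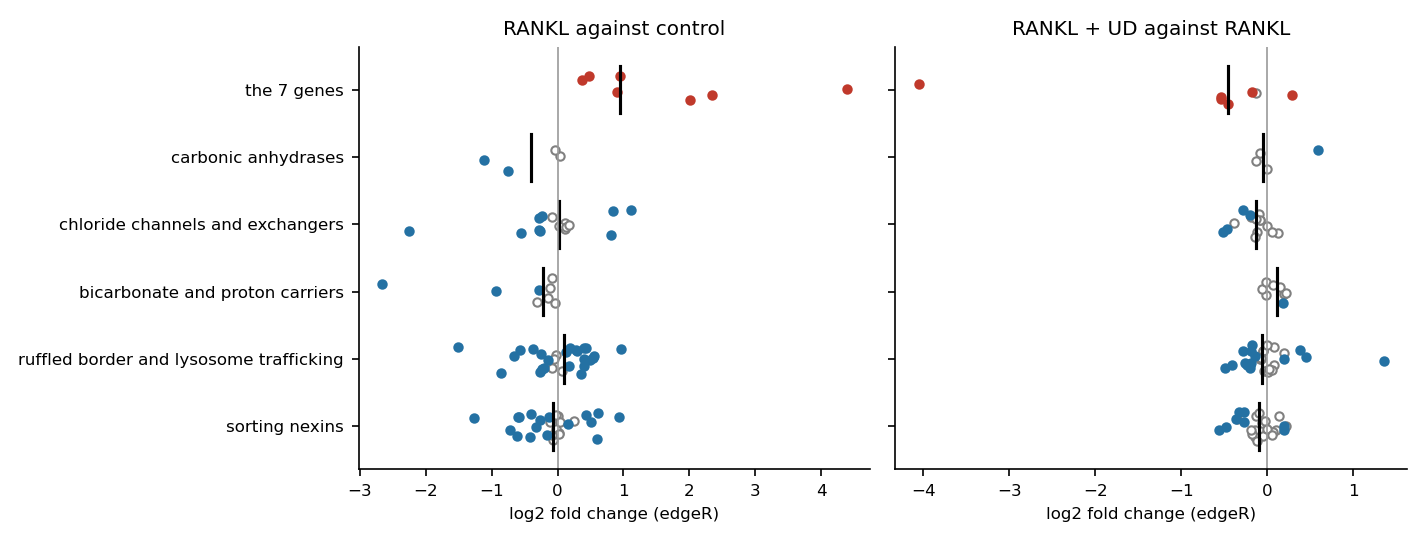
Fitted log2 fold changes of the 7 genes (top line, red where called) and of the tested genes of 5 lists of relatives (blue where called, open where not), with a vertical bar at each median. In RANKL against control the 7 genes all lie right of 0 with a median of 0.94, and the medians of the 5 lists lie between -0.40 and 0.10.

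The genes whose pattern over the 9 libraries was most like that of each gene were found by Pearson's r on log2(TMM-scaled CPM + 1) among the other 11994 tested genes, as a description, since the libraries fall into 3 groups. Slc4a2 was closest to Slc37a2 (r = 0.9996), Fblim1 (0.9996) and Nfatc1 (0.999), and Clcn7 to Myc (0.999), Edil3 (0.999) and Spink5 (0.999). Nfatc1 encodes the transcription factor that directs osteoclast formation. Its FPKM was 10.5 ± 0.883 in control, 76.1 ± 1.33 in RANKL and 57.5 ± 0.255 in RANKL + UD cells (SD, n = 3). Car2 was closest to Abcb4 (0.999), Rab15 (0.998) and Nfkb2 (0.998), and Ostm1 to Atp1b3 (0.998), Ankrd13b (0.996) and Arhgap31 (0.994). Snx10 was closest to Lcp1 (0.999) and Cog3 (0.997). Car6, with r of 0.978 for Ypel3, 0.975 for Nupr1 and 0.973 for Gpcpd1, and Plekhm1, with 0.975 for Tbc1d5, 0.974 for Copb1 and 0.973 for Coq10a, had no gene above 0.99. Slc4a2 and Clcn7 had 170 and 130 such genes.

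Annotation in the deposited table tied the genes together in small groups. The lysosomal membrane was shared by Clcn7, Ostm1 and Plekhm1, out of 287 genes with that term, and gastric acid secretion by Car2 and Slc4a2, out of 124. Positive regulation of bone resorption was given for Car2 and Plekhm1, out of 25 genes, and osteoclast differentiation for Ostm1 and Snx10, out of 35. Response to pH was given for Car2 and Clcn7, out of 12 genes.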

How the data were processed

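Poly(A)-selected, strand-marked RNA libraries were read as 150-base pairs by the study. The authors deposited read counts per gene, which were not normalized, and FPKM, which they derived from those counts, the exonic length and the library total (all FPKM values were recomputed within 0.0051). The submitters' processing notes name mm10, but coordinates in the table differ from GRCm38 for all 7 genes, so the build of the table is not given here. Columns named Model hold the RANKL group, after the study's own naming. The aligner, counter and annotation release are not given in the sources used here.

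Counts were tested with edgeR 4.0.16 in R 4.3.3 (TMM, quasi-likelihood test, all 9 libraries in 1 fit, Benjamini-Hochberg adjustment over 11995 genes, adjusted p threshold 0.05). Each edgeR SE was derived from the test, as the absolute log2 change divided by the square root of its F statistic. The code was checked on simulated counts. DESeq2 1.42.0, limma 3.58.1, other scalings and filters, and leaving out each library were tried as alternatives. The 7 genes and the lists were chosen with earlier results of these data known. Named relatives were the 2 highest and 2 lowest called genes of each list in each comparison, and the 3 genes with the highest r for each of the 7 were also named, except 1 gene that is not reported here. The labels do not say whether replicates came from separate cultures, so p-values measure only the spread between these samples. Depth, 15951800 to 19746862 counts, limits Car6 most.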

Additional observations from a re-analysis of the deposited data

How the results depend on the processing

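Of 375 alternative values for the fold changes of the 7 genes, 363 kept their direction and their side of the threshold, 11 lost the call, 1 gained it and 0 changed sign. Car6 in RANKL against control lost its call with limma on log2(FPKM + 0.1) (log2 0.80, adjusted p = 0.191) and, over the fits that left out 1 library, ranged from 0.76 to 1.11. Plekhm1 in RANKL + UD against RANKL lost its call with total counts (-0.085), limma on log2(FPKM + 1) (-0.081) and limma on log2(FPKM + 0.1) (-0.084), and leaving out 1 library gave -0.21 to -0.13. Ostm1 was called in that comparison with a minimum FPKM of 5 (-0.13, edgeR adjusted p = 0.0479). That filter removed Car6, so 0 of the 7 were lower in RANKL + UD against control. Over the 5 lists of relatives, RANKL + UD against RANKL gave 8 genes higher and 21 lower, but 15 higher and 10 lower with total counts, and 10 lower with limma at either pseudocount. Total counts moved the median of all genes to -0.11 with RANKL and 0.09 with UD, and the share of calls that were higher from 47.5% to 36.9% and from 48.0% to 66.2%. Clcn7 to Ostm1 in RANKL against control was 1.46 on the log2 scale with 1 added to both FPKM values, against 1.54. The cause of these differences was not tested.

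Replicate numbers were not taken as pairs in the main fit. Of 9 same-numbered pairs, 3 had r over 0.1 (range -0.03 to 0.17). Differently numbered pairs ranged from -0.18 to 0.11, and whether the numbers pair the samples weakly was not tested. With the replicate number as a block, none of the 21 calls of the 7 genes changed (Car6 0.94 and Car2 4.39 in RANKL against control).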

Other observations

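In RANKL + UD against control, 26.7% of all tested genes were called higher and 27.3% lower. Among the relatives of the 7 genes, of 27 tested sorting nexins, 4 were higher and 12 lower (median log2 -0.18), of 15 chloride channels and exchangers 3 were higher and 8 lower (-0.20), of 8 bicarbonate and proton carriers 0 were higher and 2 lower (-0.12), and of 4 carbonic anhydrases 1 was higher and 2 lower (-0.47). The 28 trafficking genes had 10 higher and 8 lower (0.04). The median over all tested genes was -0.002.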
